A study of Homo sapiens with 6 samples.

Results

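The human mitochondrial genome carries 37 genes, and this account follows their transcripts in KMS27, a human multiple myeloma cell line derived from malignant plasma cells. The genes were taken by their symbols, which all begin with MT-, and numbered 37 of the 63677 genes in the expression table: 13 mRNAs, 2 rRNAs and 22 tRNAs. No measured value entered that choice. The study compared cells that overexpress HA-TAZ, the transcriptional coactivator TAZ (gene WWTR1) carrying an HA tag, with wild type KMS27 cells, at 3 libraries each. Neither group is described by a drug, a time point, or whether the cells are 1 clone or a pool, and nothing says that the libraries came from separate cultures, so p-values measure the spread between these libraries, which may be technical. The control columns of the table are headed scr, a name that no sample label uses. They were assigned to the wild type group because no other group was left, and are named control a, b and c here. Whether they are wild type cells or another kind of control is therefore not certain.

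Mitochondrial DNA is transcribed from both of its strands into long precursors that cover many genes. In most places a tRNA lies between neighbouring mRNAs or rRNAs, and the enzymes that cut out the tRNAs release the other RNAs at the same time. The mRNAs encode core subunits of the respiratory chain and of ATP synthase, the rRNAs build the mitochondrial ribosome, and the tRNAs serve translation inside the organelle. Here a gene is called H-strand or L-strand by the conventional name of the strand group it belongs to: 14 tRNAs, both rRNAs and all mRNAs except MT-ND6 are H-strand genes, and 8 tRNAs and MT-ND6 are L-strand genes.

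The tRNAs on which the results turn are shown as DNA, 5′ to 3′ on the strand of the RNA, with the anticodon in capitals. They are the GENCODE 29 transcripts on GRCh38. MT-TN, MT-TC, MT-TA and MT-TY, the tRNAs for asparagine, cysteine, alanine and tyrosine, form one L-strand group, and MT-TK, the tRNA for lysine, lies on the other strand beside MT-ATP8.
MT-TA (chrM:5587-5655, minus strand): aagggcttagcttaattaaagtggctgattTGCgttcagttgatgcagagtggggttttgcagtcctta
MT-TN (chrM:5657-5729, minus strand): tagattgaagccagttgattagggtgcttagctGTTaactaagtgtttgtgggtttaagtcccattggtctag
MT-TC (chrM:5761-5826, minus strand): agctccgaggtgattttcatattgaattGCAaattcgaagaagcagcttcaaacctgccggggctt
MT-TY (chrM:5826-5891, minus strand): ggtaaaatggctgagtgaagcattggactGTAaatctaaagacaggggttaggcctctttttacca
MT-TK (chrM:8295-8364, plus strand): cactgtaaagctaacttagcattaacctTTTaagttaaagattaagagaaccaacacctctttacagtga

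MT-TC and MT-TY overlap by 1 base, MT-TA and MT-TN are 1 base apart, and 31 bases lie between MT-TN and MT-TC. MT-TK ends 1 base before MT-ATP8. MT-ATP8 and MT-ATP6 share 46 bases of 1 bicistronic mRNA, read in different frames. That stretch is shown with the start codon of MT-ATP6 in capitals, because the 2 reading frames were quantified as separate transcripts.
MT-ATP8 and MT-ATP6 overlap (chrM:8527-8572, plus strand): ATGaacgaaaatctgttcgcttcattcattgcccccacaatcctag

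Values are TPM, length-corrected shares of each library's transcripts that sum to 1000000, so the depth of single libraries is unknown. Scaled TPM is TPM divided by a library factor, the median over genes of the ratio to the mean of all libraries on the log scale. These factors lay between 0.866 and 0.967 in the HA-TAZ libraries, and came to 1.21 in control a, 1.09 in control b and 1.06 in control c. A gene was called changed at a Benjamini-Hochberg adjusted p under 0.05 in limma, fitted on log2(scaled TPM + 1) over all 22651 genes with a mean of at least 1 TPM. Log2 fold changes are HA-TAZ over control on that scale, which understates changes of low genes. WWTR1 was at 293 to 306 TPM in the HA-TAZ libraries and 1.69 to 2.69 TPM in the controls. Of 11 plasma cell markers, 10 were at 1 TPM or more (CD27 was under it), while the 15 markers of T, myeloid, fibroblast, epithelial and erythroid cells reached a mean of at most 1.68 TPM, with S100A8 at 0 in all 6 libraries. Over all tested genes 1057 were called higher and 595 lower, and with TPM as deposited, without scaling, 261 were higher and 3068 lower.

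All 37 mitochondrial genes passed the filter on low values. None of the 13 mRNAs, neither of the 2 rRNAs and 1 of the 22 tRNAs was called. The call was MT-TN, which rose. Over all tested genes 7.29% were called, 4.67% higher and 2.63% lower, so 1 of 37 is no more than that background. At an unadjusted p under 0.05 limma gave 0 mRNAs, 0 rRNAs and 3 tRNAs (MT-TN and MT-TC higher, MT-TK lower), where 30.7% of all tested genes passed. The median log2 fold change was −0.12 over the 13 mRNAs and −0.30 over the 22 tRNAs, beside −0.03 over all tested genes. Without control a the mRNA median was 0.05 and the tRNA median −0.09.

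**Figure D1:**
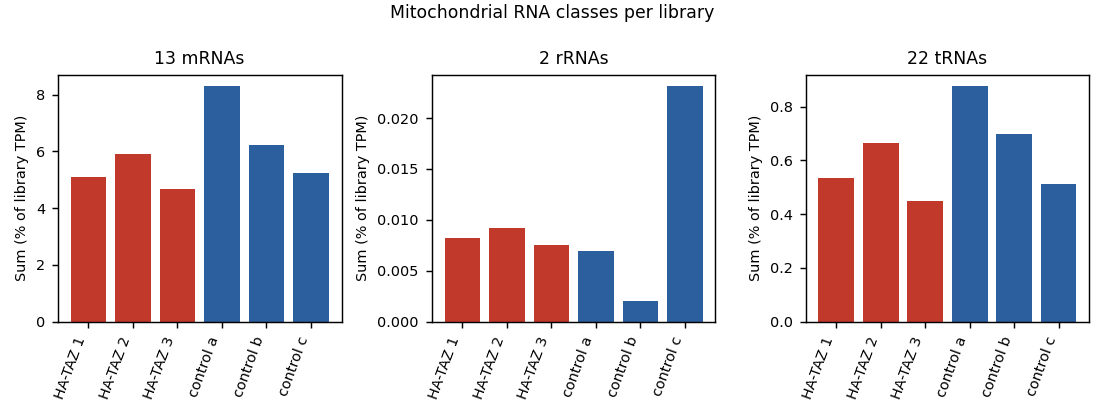
Bars give the summed TPM of the 13 mRNAs, 2 rRNAs and 22 tRNAs as a percentage of each library's TPM (y axes start at 0, with a separate scale for each class; HA-TAZ red, control blue). Control a is the highest for mRNAs and tRNAs, control c for rRNAs, and the groups overlap in all 3 classes.

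The 13 mRNAs together made up 5.11%, 5.92% and 4.66% of the TPM in HA-TAZ 1, 2 and 3, and 8.30%, 6.22% and 5.23% in control a, b and c. The means were 5.23% ± 0.638 and 6.58% ± 1.56 (SD, n = 3 each), and the groups overlapped, with control c inside the HA-TAZ range and control a above all others. Without control a the controls averaged 5.73%. In scaled TPM the sum was 57548 in HA-TAZ and 58388 in control libraries, a ratio of 0.986, and without control a the control mean was 53280, so that HA-TAZ was the higher group. The 22 tRNAs summed to 0.549% ± 0.108 in HA-TAZ and 0.695% ± 0.181 in control libraries (SD, n = 3 each), also with overlap. Control a held the highest TPM of all 6 libraries for 13 of 13 mRNAs and 29 of the 37 genes, and 53.7% of all tested genes also peaked in control a. RN7SL1 and RN7SL2, abundant cytoplasmic RNAs of the signal recognition particle, took 9.27% of the TPM in control a, 12.2% to 12.5% in the other controls and 14.1% to 15.6% in HA-TAZ libraries. The part of control a and of these RNAs in the results that follow was not tested.

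The 7 complex I mRNAs encode membrane subunits of NADH dehydrogenase, the entry point of electrons from NADH. All 7 had negative log2 fold changes and none was called (limma, Benjamini-Hochberg adjusted p = 0.480 to 0.924). MT-ND6, the L-strand mRNA, was at 1064 ± 119 scaled TPM in HA-TAZ and 1288 ± 372 in control libraries (SD, n = 3 each; log2 fold change −0.24, 95% confidence interval −0.77 to 0.28). MT-ND2 had a log2 fold change of −0.20, MT-ND5 of −0.16, MT-ND3 of −0.14, MT-ND4L and MT-ND1 of −0.12 and MT-ND4 of −0.03. Without control a, MT-ND1, MT-ND3, MT-ND4L and MT-ND4 turned positive, at 0.01 to 0.12. The scaled groups overlapped for every one of the 7.

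MT-CYB, the mitochondrial subunit of complex III, was at 1909, 1955 and 1732 scaled TPM in HA-TAZ 1, 2 and 3 and at 1963, 1818 and 1549 in control a, b and c. The groups overlapped, and the log2 fold change was 0.08 (SE 0.11, limma, Benjamini-Hochberg adjusted p = 0.671). It was −0.02 without control c.

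MT-CO1, MT-CO2 and MT-CO3 encode the core of cytochrome c oxidase, complex IV, and were the 3 most abundant mitochondrial mRNAs. MT-CO1, which encodes the subunit holding the oxygen-reducing centre, was at 13013, 13090 and 10926 scaled TPM in HA-TAZ 1, 2 and 3 and at 11562, 10629 and 9782 in control a, b and c. HA-TAZ 1 and HA-TAZ 2 lay above all controls and HA-TAZ 3 lay among them. The log2 fold change of MT-CO1 was 0.21 (SE 0.14, 95% confidence interval −0.14 to 0.56; limma, Benjamini-Hochberg adjusted p = 0.356). MT-CO3 had 0.14 and MT-CO2 −0.07, and neither was called. Without control a MT-CO2 was at 0.03. The positive values of MT-CO1, MT-CO3 and MT-CYB were the only ones among the mRNAs, and all 3 were negative with TPM as deposited.

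MT-ATP8 and MT-ATP6 encode membrane subunits of ATP synthase, complex V. MT-ATP8 was at 2359, 2747 and 2065 scaled TPM in HA-TAZ 1, 2 and 3 and at 5342, 3529 and 2620 in control a, b and c. Control a was the highest and control c fell between HA-TAZ 1 and HA-TAZ 2, so the groups overlapped. The log2 fold change of MT-ATP8, at −0.63 the farthest from 0 of the 13 mRNAs, was not called (SE 0.27, 95% confidence interval −1.30 to 0.04; limma, Benjamini-Hochberg adjusted p = 0.183), and without control a it was −0.36. In TPM as deposited its groups did not overlap, being lower in HA-TAZ, as for 43.6% of all tested genes, while 4.41% were higher without overlap and none of the 37 was. MT-ATP6 had a log2 fold change of −0.14, and 0.05 without control a.

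**Figure D2:**
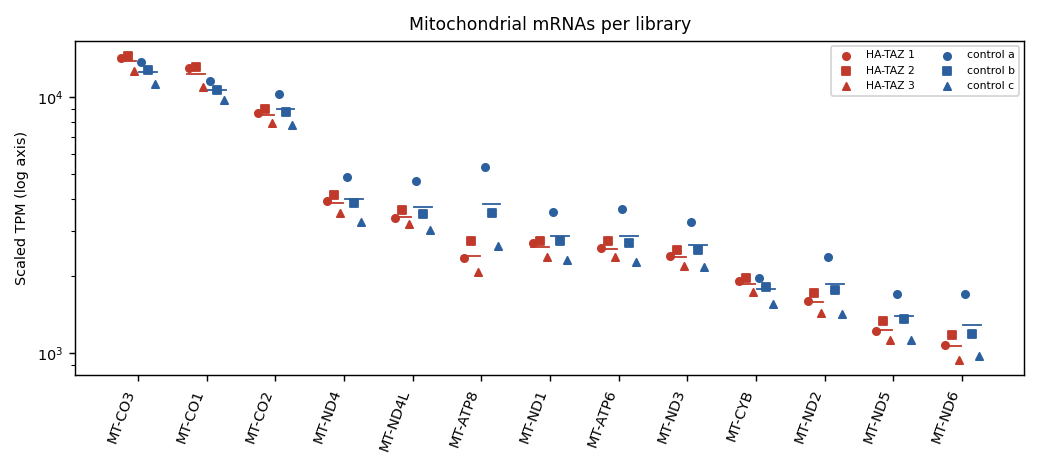
Scaled TPM of the 13 mRNAs in each library on a log axis, ordered by mean TPM (HA-TAZ red, control blue; symbols are libraries and short lines group means). The 3 complex IV mRNAs lie above the rest, and the groups overlap for all 13.

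A share of the summed mitochondrial mRNA does not depend on how libraries are scaled against each other. Counted this way the complex IV mRNAs made up 60.9%, 59.7% and 60.0% of the 13-mRNA sum in HA-TAZ 1, 2 and 3 and 51.8%, 56.3% and 58.2% in control a, b and c. Every HA-TAZ library lay above every control, with control c the nearest and control a the farthest. The means were 60.2% ± 0.635 and 55.4% ± 3.29 (SD, n = 3 each), and without control a the control mean was 57.3%.

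MT-CO1 accounted for 21.4% ± 0.607 of the sum in HA-TAZ and 18.4% ± 1.47 in control libraries (SD, n = 3 each). MT-CO3 accounted for 24.0% ± 0.282 and 21.6% ± 1.48, and MT-CYB for 3.24% ± 0.0569 and 3.06% ± 0.174. Without control a the difference was 1.48 percentage points for MT-CO3 and 0.0865 for MT-CYB. These 3 were higher in HA-TAZ without overlap, and 8 mRNAs were lower without overlap: MT-ATP8, MT-ATP6 and 6 of the 7 complex I mRNAs. MT-CO2 and MT-ND4 overlapped. Of all tested genes divided by the same sum, 6.83% were higher and 11.1% lower without overlap, but those genes carry the spread of the sum between libraries, which cancels among its own 13 members, so these percentages are no like-for-like background. Shares of 1 sum are not independent, since a rise of one lowers the others.

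MT-ATP8 took 3.999%, 4.48% and 3.94% of the sum in HA-TAZ 1, 2 and 3 and 7.79%, 6.18% and 5.30% in control a, b and c. All controls lay above all HA-TAZ libraries. Leaving out any 1 library kept the difference between −2.84 and −1.60 percentage points, and that of MT-CO1 between 2.23 and 3.69. Complex I as a whole took 28.0% ± 0.396 in HA-TAZ and 30.2% ± 1.79 in control libraries (SD, n = 3 each), and the control mean was 29.2% without control a.

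When limma was run on TPM divided by the mitochondrial mRNA sum, 66 genes were called over the whole table and none of the 37 was among them. MT-ATP8 had a log2 fold change of −0.62 in that fit (limma, Benjamini-Hochberg adjusted p = 0.286). With 3 libraries against 3 an exact permutation test of a single share cannot go below p = 0.1, so no such test was run.

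**Figure D3:**
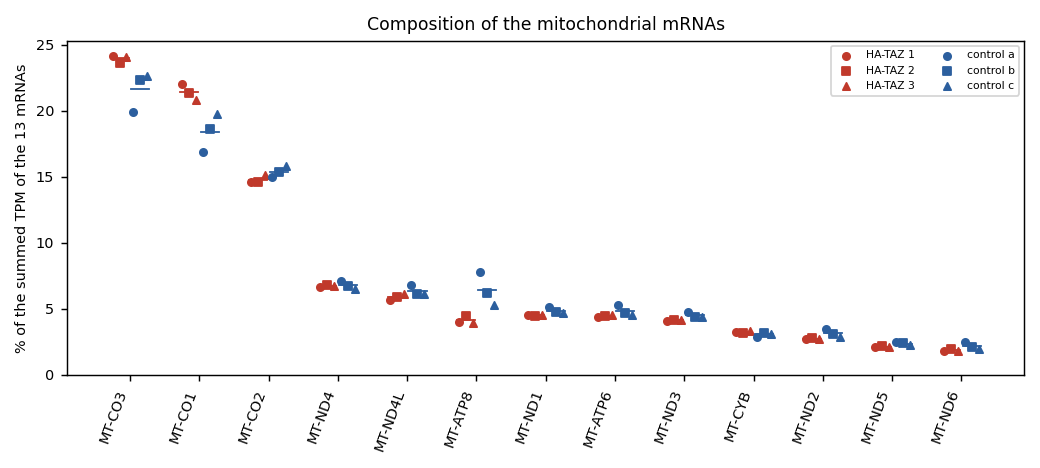
Share of each mRNA in the summed TPM of the 13 mRNAs, in percent on an axis that starts at 0 (HA-TAZ red, control blue; symbols are libraries and short lines group means). MT-CO3 and MT-CO1 are higher in the HA-TAZ libraries and MT-ATP8 is lower, with control a farthest from them.

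The shared bicistronic mRNA allows a ratio within 1 RNA. MT-ATP8 over MT-ATP6 in TPM was 0.920, 1.01 and 0.873 in HA-TAZ 1, 2 and 3 and 1.47, 1.32 and 1.16 in control a, b and c. The groups did not overlap, at means of 0.933 ± 0.067 and 1.31 ± 0.153 (SD, n = 3 each). MT-ND4L and MT-ND4, the other bicistronic pair, overlap by 7 bases and had ratios of 0.879 ± 0.025 and 0.935 ± 0.0271 (SD, n = 3 each), lower in HA-TAZ, with HA-TAZ 3 and control b almost equal. No background share was computed for ratios. TPM corrects for length, and the 207 bases of MT-ATP8 carried 3.89 of the authors' estimated counts per TPM where the 1542 bases of MT-CO1 carried 89.5. Per base that came to 0.0188 and 0.0580, so the correction was not by the plain number of bases. Across the 13 mRNAs the log2 fold change went with GC content (Pearson r = 0.74, Spearman rho = 0.80), with log2 length (r = 0.63, rho = 0.48) and with log2 mean TPM (r = 0.50, rho = 0.69). Across the 22 tRNAs the same values were r = 0.49 for GC content, −0.32 for log2 length and 0.03 for log2 mean TPM. Those points are genes that share the same 6 libraries, and the part of length, level and base composition in the ratios was not tested.

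The 2 rRNAs were scarce in these libraries, which were made after depletion of ribosomal RNA with Ribo-Zero Plus. MT-RNR1, the small-subunit rRNA, was at 34.6, 38.0 and 31.8 TPM in HA-TAZ 1, 2 and 3 and at 27.6, 7.35 and 102 TPM in control a, b and c. MT-RNR2, the large-subunit rRNA, was at 48.0, 53.9 and 43.3 TPM and at 41.5, 12.9 and 129 TPM in the same order. The HA-TAZ libraries lay close together inside the range of the controls, whose highest value was 13.9 times the lowest for MT-RNR1 and 9.99 times for MT-RNR2.

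The log2 fold change was 0.58 for MT-RNR1 (SE 0.88, 95% confidence interval −1.58 to 2.74) and 0.51 for MT-RNR2 (SE 0.78, −1.42 to 2.43), and neither was called in limma (Benjamini-Hochberg adjusted p = 0.686 and 0.695). Without control b they were −0.30 and −0.28, and without control c 1.53 and 1.35. Both rRNAs moved together between libraries, at MT-RNR2 to MT-RNR1 ratios of 1.26 to 1.75. How much depletion differed between libraries was not tested, so these values describe what was left after it.

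**Figure D4:**
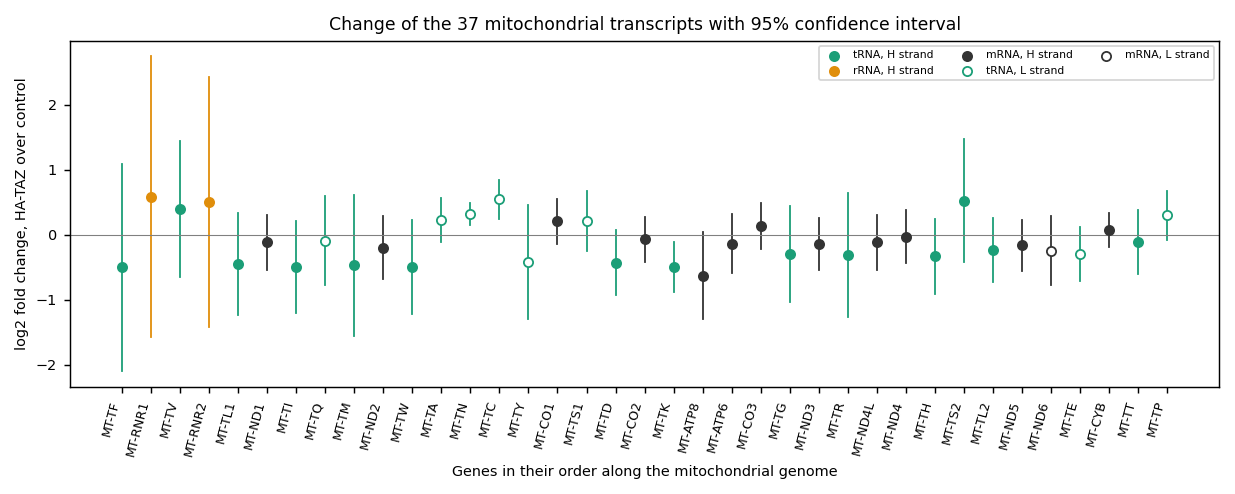
Log2 fold change of HA-TAZ over control for the 37 genes in their order along the mitochondrial genome, with 95% confidence intervals from limma (filled symbols H-strand, open symbols L-strand; colours mark mRNAs, rRNAs and tRNAs). The intervals of MT-TN, MT-TC and MT-TK leave out 0, and those of the rRNAs are the widest.

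The 22 tRNAs ranged from a mean of 4.24 TPM for MT-TF to 1228 TPM for MT-TP, the tRNA for proline. They are 59 to 75 bases long, shorter than the reads of 100 bases that the labels give, and the reading of so short an RNA from such libraries was not tested. The values may hold precursors as well as mature tRNAs.

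MT-TN was at 486, 499 and 475 scaled TPM in HA-TAZ 1, 2 and 3 and at 425, 370 and 374 in control a, b and c. All HA-TAZ libraries lay above all controls, as for 20.2% of all tested genes, and the log2 fold change was 0.32 (SE 0.07, 95% confidence interval 0.16 to 0.49; limma, Benjamini-Hochberg adjusted p = 0.0483). In TPM as deposited the groups overlapped, at 442 ± 35.1 and 438 ± 66.4 TPM (SD, n = 3 each). The call held in 1 of the 6 fits that left out a library, that without control a (limma, Benjamini-Hochberg adjusted p = 0.0348), and its adjusted p ranged from 0.0330 to 0.902 over all alternatives. Those 6 fits called 118 to 470 genes over the whole table, beside 1652 with all libraries.

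MT-TC was at 1245, 1156 and 1009 scaled TPM in HA-TAZ 1, 2 and 3 and at 704, 897 and 742 in control a, b and c. Again all HA-TAZ libraries were the higher ones. The log2 fold change was 0.54 (SE 0.12, 95% confidence interval 0.24 to 0.85), which missed the threshold (limma, Benjamini-Hochberg adjusted p = 0.0552). With TPM as deposited the groups overlapped and it was 0.24 (limma, Benjamini-Hochberg adjusted p = 0.174).

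MT-TK was at 148, 159 and 133 scaled TPM in HA-TAZ 1, 2 and 3 and at 252, 207 and 168 in control a, b and c. All HA-TAZ libraries lay below all controls, as for 18.3% of all tested genes, with control c the closest. The log2 fold change was −0.49 (SE 0.16, 95% confidence interval −0.88 to −0.10; limma, Benjamini-Hochberg adjusted p = 0.104). MT-TN, MT-TC and MT-TK were the only ones of the 37 whose scaled groups did not overlap.

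**Figure D5:**
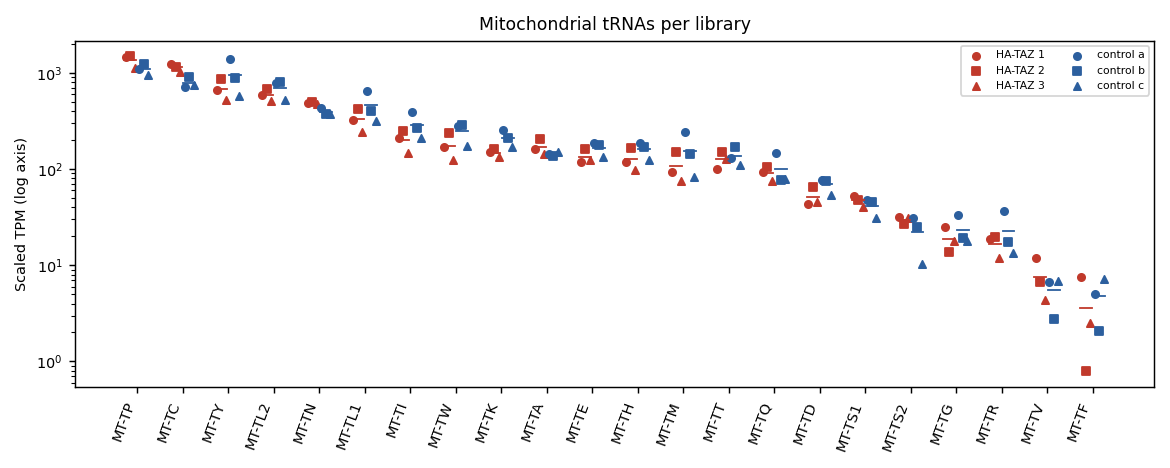
Scaled TPM of the 22 tRNAs in each library on a log axis, ordered by mean TPM (HA-TAZ red, control blue; symbols are libraries and short lines group means). MT-TC and MT-TN lie higher in all HA-TAZ libraries and MT-TK lower, and the other 19 overlap.

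The authors' deposited table tests single transcripts, and each of the 37 genes has 1 transcript in it. In the authors' deposited table, whose effects are natural logs, MT-TC had 0.267 at a q-value of 0.0141, and MT-TK had −0.397 at 0.0342. These were the 2 of 37 under a q-value of 0.05, 1 higher and 1 lower, beside 5.68% of all transcripts with statistics there (4.08% higher and 1.6% lower), and MT-TN had a q-value of 0.227. No mitochondrial mRNA passed in the authors' deposited table, where MT-CO1 had the lowest q-value of the 13 at 0.329. The median excess of those effects over the logged ratio of geometric mean TPM was 0.218 for the mRNAs and 0.120 for the tRNAs, beside 0.223 over all transcripts. From the authors' deposited table the geometric mean of scaled estimated counts was 504 for MT-TN, 1162 for MT-TC, 213 for MT-TK and 4.57 for MT-TF, against 1030110 for MT-CO1. Counting error alone was then 4.45% for MT-TN, 2.93% for MT-TC, 6.85% for MT-TK and 46.8% for MT-TF.

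By strand, 5 of the 8 L-strand tRNAs had positive log2 fold changes (median 0.22), and 12 of the 14 H-strand tRNAs had negative ones (median −0.38), with MT-TV and MT-TS2 positive. With TPM as deposited MT-TA, MT-TS1 and MT-TP turned negative, which left MT-TN and MT-TC as the 2 positive ones of the 8 L-strand tRNAs. Relative to the mitochondrial mRNA sum the L-strand tRNAs came to 7.10% ± 0.372 in HA-TAZ and 6.29% ± 0.352 in control libraries, and the H-strand tRNAs to 3.33% ± 0.444 and 4.24% ± 0.493 (SD, n = 3 each). Both pairs of groups overlapped, and the difference between the strands was not tested. The L-strand group was not uniform. MT-TY, the neighbour of MT-TC, was at 656, 867 and 521 scaled TPM in HA-TAZ 1, 2 and 3 and 1398, 878 and 571 in control a, b and c, with overlap and a log2 fold change of −0.41. MT-TC over MT-TY was 1.90, 1.33 and 1.94 in HA-TAZ 1, 2 and 3 and 0.504, 1.02 and 1.30 in control a, b and c, without overlap but with HA-TAZ 2 and control c nearly touching. MT-TP had a log2 fold change of 0.30 and was not called (limma, Benjamini-Hochberg adjusted p = 0.237), and MT-TA had 0.23 with an adjusted p of 0.310.

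Nuclear DNA holds copies of mitochondrial genes, between which reads can be split. Runs of 31 bases shared with other GENCODE 29 transcripts made up 0% of each of the 22 tRNAs, 3.48% of MT-ND3 and 66.7% of MT-CO1, the lowest and highest among the mRNAs. Nuclear copies were found by symbols that begin with MTND, MTCO, MTATP, MTCYB or MTRNR, and 13 of 196 reached a mean of 1 TPM. Copies under other symbols were not counted, among them MTCO1P12, a copy of MT-CO1 listed as hsa-mir-6723, at 15.2 TPM. MTATP6P1, a copy of MT-ATP6, was at 400 TPM or 14.4% of MT-ATP6, and MTND2P28 at 202 TPM or 11.4% of MT-ND2. All 13 had negative log2 fold changes, as had 12084 of all 22651 tested genes, though MTND2P28 was at 0.06 without control a. MTND6P18, named after its value was seen, was the 1 called lower (−0.74; limma, Benjamini-Hochberg adjusted p = 0.0367), where 2.63% of all tested genes were. It passed the filter on mean TPM only through the controls, at 1.86 to 3.14 TPM beside 0.767 to 0.839 TPM in HA-TAZ. MTND5P11 and MTCO3P2 passed in the same way. So did MTND5P2 (0.707 to 1.03 TPM in HA-TAZ, 1.86 to 3.42 in controls) and MTND4P12 (0.439 to 1.06 and 1.05 to 2.37). MTND5P20 (0 to 2.14 and 0.571 to 7.59) also reached a mean of 1 TPM only with the controls. The filter itself therefore favours negative values among these copies. The levels of MT-ATP6 and MT-ND2 are uncertain to the extent of MTATP6P1 and MTND2P28.

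Proteins encoded in the nucleus transcribe, cut, stabilise and translate the mitochondrial RNAs. Of 64 such genes all 64 were tested, 6 were called higher and none lower, which is 9.38% beside 4.67% called higher over all genes. With the filter at a mean of at least 5 TPM, 11 of 62 tested members were called higher, where 1513 of all 12613 tested genes were. The share called over all genes thus depends on the level of the genes taken in, and 62 of the 64 members were at 5 TPM or more. At an unadjusted p under 0.05 limma gave 25 higher and 0 lower of the 64, where 30.7% of all tested genes passed in either direction. The median log2 fold change was 0.12. With TPM as deposited 3 of the 64 were called, all lower, where 3068 of all 22651 tested genes were called lower. With any 1 library left out none of the 64 was called in limma, where 118 to 470 genes were called over the whole table. In those fits 18 to 24 of the 64 had an unadjusted p under 0.05, beside 5097 to 6492 of the 22270 to 22999 genes tested in them.

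None of the 9 transcription genes was called in limma, and 3 had an unadjusted p under 0.05, where 30.7% of all tested genes had. POLRMT, the mitochondrial RNA polymerase, had a log2 fold change of 0.06, TFAM, which packages and activates the DNA, 0.17, TFB2M, the initiation factor, 0.21, TEFM, the elongation factor, 0.15 and MTERF1, a termination factor, −0.06. None of the 8 replication genes was called, and 1 had an unadjusted p under 0.05, beside the same 30.7%.

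Of 35 genes for RNA processing, stability and modification 3 rose, beside 4.67% of all tested genes, a share that depends on the filter on level. None of the 3 calls held with any 1 library left out, where calls over all genes fell from 1652 to between 118 and 470. LRPPRC, which stabilises the mitochondrial mRNAs, was at 120 ± 1.10 scaled TPM in HA-TAZ and 101 ± 3.18 in control libraries (SD, n = 3 each) (difference of 0.24 on the log2 scale; limma, Benjamini-Hochberg adjusted p = 0.0331). Its partner SLIRP had 0.27 and was not called (limma, Benjamini-Hochberg adjusted p = 0.0720). GRSF1, an RNA granule protein, rose by 0.29 on the log2 scale. HSD17B10, a subunit of the enzyme that cuts the tRNA 5′ ends, rose by 0.48, but 2 gene identifiers carry that symbol, so its level is uncertain. Its partner TRMT10C had 0.12, ELAC2, which cuts the 3′ ends, 0.24, the poly(A) polymerase MTPAP 0.03, and PNPT1 and SUPV3L1, which degrade RNA, 0.00 and 0.14, and none of these 5 was called.

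Of 12 translation genes 3 rose, beside the same 4.67%, with the same limit. TACO1, which activates translation of MT-CO1, rose by 0.43 on the log2 scale. MRPL58, a peptide release factor listed under its older symbol ICT1, rose by 0.39, and TSFM, an elongation factor, by 0.22. These calls too were lost with any 1 library left out, where calls over all genes fell to between 118 and 470. With TPM as deposited LRPPRC, GRSF1 and TSFM had negative log2 fold changes, while TACO1, MRPL58 and HSD17B10 stayed positive.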

How the data were processed

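Stranded total RNA libraries were made after ribosomal depletion and sequenced in paired-end mode, per the labels' protocols. TPM per transcript were deposited by the authors; kallisto 0.46.0, sleuth 0.30.0 and GRCh37 are named in the submitters' processing notes, with no role or order. The authors' deposited table gives p-values and q-values per transcript, and effects and means on the natural log scale. TPM were summed per gene. Scaling factors used 21512 tested genes above 0 in every library, as in an earlier analysis of these data; the plan had named all 33614 genes above 0, and the switch was made after results were seen. Factors were recomputed when a library was left out, also after results were seen. limma 3.58.1 (R 4.3.3) with an intensity trend tested log2(scaled TPM + 1), two-sided, and was tested on simulated data. The 37 genes and the gene lists were chosen with earlier results of these data known. Named were all mRNAs and rRNAs, called and most abundant tRNAs, and L-strand tRNAs as a group. Also named were called nuclear genes and 12 listed by name (LRPPRC is both), and the most abundant of the nuclear copies found by symbol. MT-TK fell under none of these and was named after its values were seen. Sequences and gene types came from GENCODE 29 (GRCh38), whose transcript versions equal those deposited for all 37 genes.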

Additional observations from a re-analysis of the deposited data

How the results depend on the processing

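No paired analysis was possible because the control columns carry a name that no label gives and cannot be tied to numbered samples. No mitochondrial mRNA or rRNA was called under any alternative run. Called genes over the whole table, 1652 as reported, were 3329 with TPM as deposited, 66 with scaling by the mitochondrial mRNA sum, 691 with no filter, 758 without trend, and 118 to 470 with a library left out (115 to 462 with scaling factors kept from all 6 libraries). With the filter at a mean of at least 5 TPM, 2240 of 12613 tested genes were called, 1513 higher and 727 lower. Scaling over protein-coding genes gave 660 higher and 859 lower. The wider gene set first planned for scaling gave 1394 and 531, with 9 called genes of the nuclear list. The scalings moved the median of all genes from −0.03 to −0.27 (as deposited). Called tRNAs, 1 as reported, were 0 with TPM as deposited, protein-coding scaling, mRNA-sum scaling, no filter or no trend. They were 0 to 1 with a library left out, with either set of factors. At a mean of at least 5 TPM, 2 of 21 tested tRNAs were called (MT-TC added), where 2240 of 12613 tested genes were. The 6 called genes of the nuclear list became 3 (all lower) with TPM as deposited and 2 with protein-coding scaling. They became 0 with mRNA-sum scaling, no filter or no trend, and 0 with any library left out. At a mean of at least 5 TPM, 11 of 62 tested members were called, all higher, where 1513 of 12613 tested genes were called higher. At a q-value under 0.01 the authors' deposited table held 0 of the 37.

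With TPM as deposited these log2 fold changes changed sign: MT-CO1 −0.0912, MT-CO3 −0.16, MT-CYB −0.23, MT-TA −0.0743, MT-TS1 −0.0851, MT-TP −0.00351, POLRMT −0.23, TFAM −0.12, TFB2M −0.0802, TEFM −0.14, ELAC2 −0.0562, TRMT10C −0.17, MTPAP −0.26, LRPPRC −0.0553, SLIRP −0.0255, PNPT1 −0.29, SUPV3L1 −0.15, GRSF1 −0.00641 and TSFM −0.0685. With protein-coding scaling MT-CYB was −0.000137, POLRMT −0.0119, MTPAP −0.0418 and PNPT1 −0.0696, and with the wider gene set MT-ND4 was 0.00591. Leaving out a library gave these ranges: MT-ND1 −0.26 to 0.0483, MT-CO2 −0.16 to 0.0344, MT-ATP6 −0.29 to 0.0483, MT-ND3 −0.27 to 0.0149, MT-ND4L −0.26 to 0.0539, MT-ND4 −0.17 to 0.12, MT-CYB −0.0206 to 0.15, MT-RNR1 −0.30 to 1.53, MT-RNR2 −0.28 to 1.35, MT-TF −1.10 to 0.0387, MT-TQ −0.25 to 0.21, MT-TR −0.60 to 0.0828, MT-TT −0.25 to 0.0568, MTPAP −0.011 to 0.0733, PNPT1 −0.10 to 0.0899, MTND2P28 −0.24 to 0.0599, and the share of MT-ND4 in the mRNA sum −0.212 to 0.065 percentage points. The cause was not tested. TPM carries no depth, so no interval for counting error per library could be given.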
